A study of Mus musculus with 16 samples.

Results

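The genes described here encode the route by which a heart cell takes up fatty acids, activates them to acyl-CoA, carries them into the mitochondrion and oxidises them. They were chosen by name as 32 genes of 7 steps of that route, by a rule that uses no measured value but was drawn up with earlier results of these data known, and all 32 were found among the 24371 genes of the deposited table and entered the tests. Mouse heart tissue was profiled by bulk RNA sequencing in 16 samples, 4 in each of 4 groups. Every animal had been given a high-fat diet and L-NAME, which blocks nitric oxide synthase, for 12 weeks, a regimen that models HFpEF (heart failure in which the ejection fraction is preserved), so no comparison here is with a healthy heart. In 2 groups both Gpr91 alleles were floxed (Gpr91fl/fl, "floxed hearts"). The other 2 groups carried the same floxed alleles together with Myh6Cre (Myh6Cre Gpr91fl/fl, "Cre hearts"), whose promoter drives Cre in cardiomyocytes and leaves the gene whole in other cells of the tissue. Each genotype was sampled with and without succinate, a ligand of the GPR91 receptor. The sources used here give no strain, age or sex and no dose or route of succinate, and none of these groups carried Cre without the floxed alleles.

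The adult heart draws most of its ATP from fatty acids. CD36 and the FATP proteins bring long-chain fatty acids across the membrane, FABP3 binds them in the cytosol, and acyl-CoA synthetases trap them as CoA esters. CPT1 on the outer and CPT2 on the inner mitochondrial membrane pass the acyl group through carnitine, which itself enters the cell through OCTN2 (Slc22a5). Inside, each turn of beta-oxidation runs through an acyl-CoA dehydrogenase, a hydratase, a hydroxyacyl-CoA dehydrogenase and a thiolase, and the electrons of the first step reach ubiquinone through the electron transfer flavoprotein and its dehydrogenase. Many of these genes are known targets of the PPAR-alpha and ERR nuclear receptors.

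Start-site sequence is shown for the members on which later results turn. Hadha and Hadhb, the alpha and beta subunits of the mitochondrial trifunctional protein, lie head to head on chromosome 5, with RefSeq starts 273 bases apart (GRCm38.p6; the expression files use GRCm39). The 228 bases between them that lie within 250 bases before both starts are printed because the transcript ratio of these subunits moved (described below with the thiolysis genes). Capitals mark the 1 GC box, GGGCGG on either strand, found in it.
Hadha-Hadhb (chr5:30155003-30155230, + strand): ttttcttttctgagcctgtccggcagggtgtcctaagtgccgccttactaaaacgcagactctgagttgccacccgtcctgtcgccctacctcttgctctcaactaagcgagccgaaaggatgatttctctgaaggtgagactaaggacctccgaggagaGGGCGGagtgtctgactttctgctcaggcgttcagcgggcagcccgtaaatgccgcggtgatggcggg
RefSeq gave start windows (250 bases before to 50 after a start) for 28 of the 32 genes, 33 windows in all. Motifs were searched only in the 250 bases before each start, and the shares below refer to that part of a window. Entries were missing for Acaa2, Cpt1b, Acad9 and Decr1. The GC box stood in 69.7% of the 33 windows, against 32.7% of all 32851 windows of the table. Those 32851 windows were not chosen by expression in heart. The 33 windows are not independent, since those of Hadha and Hadhb both hold the GC box of their shared region. The direct repeat known to be bound by PPAR and its RXR partner, 2 copies of AGGTCA in tandem with 1 free base between them, was searched on both strands. No window of these genes held it with 1 mismatch or none, against 0.484% of all windows with up to 1 mismatch. With 2 mismatches allowed, 3 of the 33 windows held it (9.09%, against 3.24% of all windows), those of Cd36, Etfa and Echs1. Their matches are printed with 24 bases on each side and the repeat in capitals, since these are the only members that held it within 2 mismatches.
Cd36 (chr5:17835923-17835983, - strand, match read on the opposite strand): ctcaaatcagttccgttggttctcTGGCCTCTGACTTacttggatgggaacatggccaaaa
Etfa (chr9:55512284-55512344, - strand, match read on the opposite strand): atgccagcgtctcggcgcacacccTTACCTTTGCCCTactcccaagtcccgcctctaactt
Echs1 (chr7:140116468-140116528, - strand, match read on the same strand): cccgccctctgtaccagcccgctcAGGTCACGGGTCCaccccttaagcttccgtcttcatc
A match of letters is a description and shows no binding.

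Libraries held 27835235 to 34700996 counts, of which mitochondrially encoded genes took 23.5% to 27.7%. Levels are given as FPKM, the authors' counts scaled by gene length and library total, which allows genes to be compared. Changes are log2 fold changes from edgeR on the counts, with the standard error (SE), and a gene is said to rise or fall when its adjusted p was below 0.05 over 14607 tested genes. Ventricular and general cardiomyocyte markers (Myh6, Actc1, Tnnt2, Tnni3, Ryr2, Myl2, Myl3 and Pln) dominated the marker lists in every library. They summed to 45128 to 62441 CPM (counts scaled by the library total), while white adipocyte markers summed to 3.0 CPM at most. The 4 genes listed as brown adipocyte markers (Ucp1, Cidea, Cox7a1 and Dio2) summed to 393 to 874 CPM, although Ucp1 had 0 or 1 count. The part of each gene in that sum is not given, so the sum is not a measure of brown adipocytes. With succinate, averaged over genotypes, 1 of the 3 tested genes of this list fell (log2 fold change -1.07), where 8.45% of all tested genes fell. The targeted gene, under its current symbol Sucnr1, had 0 to 7 counts in floxed and 2 to 21 in Cre hearts, so its counts were not lower in Cre hearts and the knockout label could not be checked at this depth. The labels do not say that samples came from separate animals, and the p-values cover only the variation among these libraries, which may be technical.

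With succinate, genes of 6 of the 7 steps rose in floxed hearts. Of the 32 genes, 14 rose and 1 fell, where 7.48% of all tested genes rose and 5.64% fell in the same test. Fold changes were positive for 30 of the 32, with a median of 0.33 on the log2 scale, against 0.00 over all genes. The genes that rose most were Slc27a1, Slc22a5, Cpt1a and Acsl1, which act at the membrane, at carnitine import, at the outer mitochondrial membrane and in activation. By step, 3 of 4 carnitine genes rose (median 0.69), 2 of 4 uptake genes (0.25), 2 of 7 activation genes with 1 that fell (0.35), 3 of 7 acyl-CoA dehydrogenases (0.29), 2 of 5 genes of the later steps (0.36), neither of the auxiliary enzymes (0.24) and 2 of 3 electron transfer genes (0.31). Dropping untreated floxed replicate 1, untreated floxed replicate 3, succinate-treated floxed replicate 1 or succinate-treated floxed replicate 3 left 9 genes in place of 15 in each case, and dropping untreated Cre replicate 1 gave 19.

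Cre hearts showed smaller values that mostly did not pass. Acad11 was the only one of the 32 to rise and none fell, where 0.602% of all tested genes rose. Fold changes were positive for 29 of the 32 with a median of 0.23, and 15 had an unadjusted p below 0.05. Over all 14607 tested genes 51.3% of changes were positive and 2054 had an unadjusted p below 0.05. The Cre count turned on which library was left out: 6 genes passed when untreated Cre replicate 3 was dropped. None passed when untreated Cre replicate 1, 2 or 4, succinate-treated Cre replicate 1, 3 or 4, untreated floxed replicate 1 or 3, or any 1 of the 4 succinate-treated floxed libraries was dropped. The median was 0.33 without replicate 3 and 0.13 without replicate 1 of the Cre hearts. Averaged over both genotypes, 19 genes rose and 1 fell, where 10.6% of all tested genes rose and 8.45% fell.

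**Figure D1:**
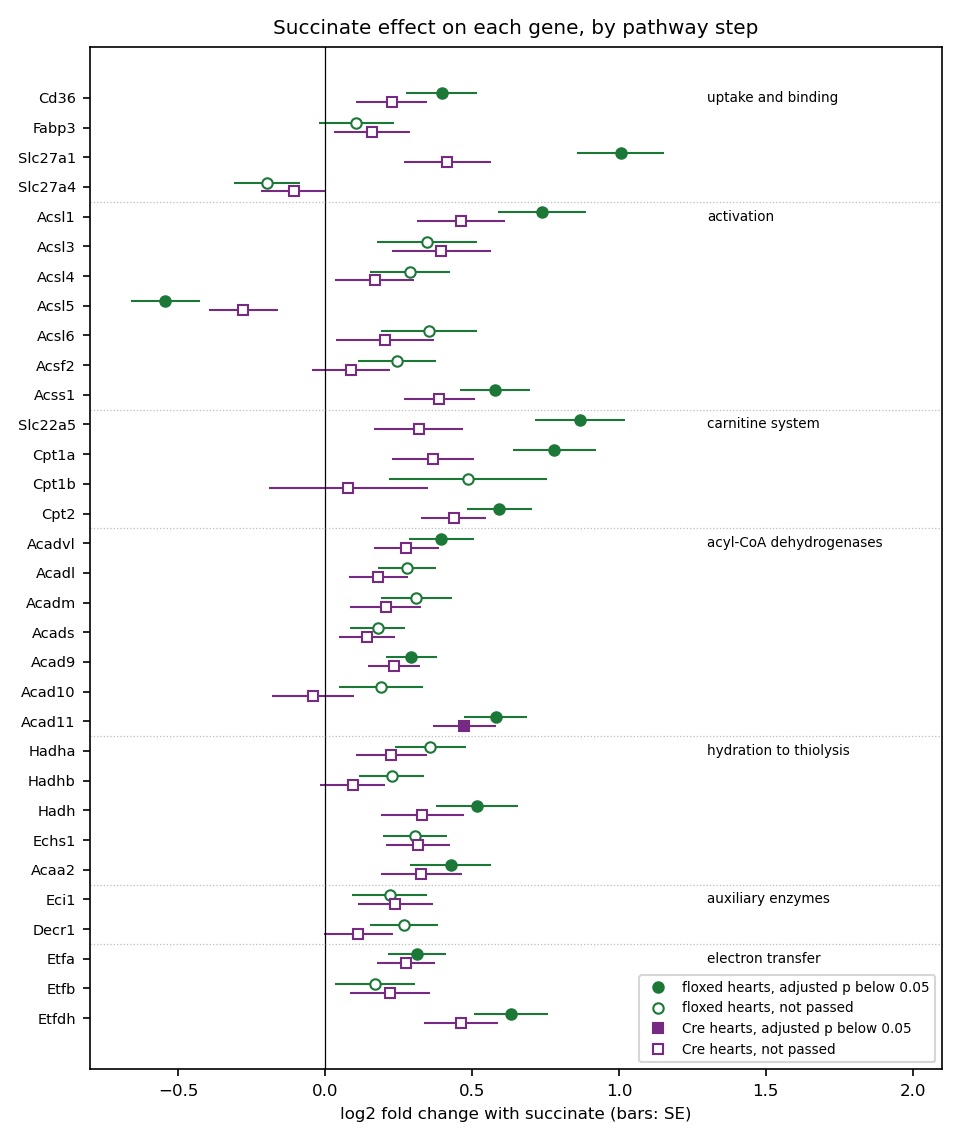
Log2 fold change with succinate for each of the 32 genes (x axis; bars are SE) in floxed hearts (circles) and Cre hearts (squares), ordered by step of the pathway; filled symbols passed an edgeR adjusted p of 0.05. In floxed hearts 14 filled circles lie right of 0 and 1 (Acsl5) left of it, while in Cre hearts 1 square (Acad11) is filled.

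The 32 genes together made up 2.34%, 2.62%, 2.30% and 2.54% of the counts of nuclear genes in floxed hearts (replicates 1 to 4) and 3.09%, 2.96%, 2.87% and 3.04% with succinate. In Cre hearts the shares were 1.93%, 2.45%, 2.71% and 2.23%, and 2.61%, 2.74%, 2.52% and 2.66% with succinate. All 4 floxed libraries with succinate were above all 4 without it and above every Cre library. The Cre libraries overlapped between treatments, because replicate 3 without succinate stood higher than 3 of the 4 with it. Replicate 1 of the Cre hearts, the lowest share, also had the highest sum of atrial markers (1784 CPM, against 384.8 to 965.6 CPM in the other 7 Cre libraries). In floxed hearts the atrial sum was 199.5 to 498.7 CPM without succinate and 87.7 to 113 CPM with it. The sum of ventricular and general cardiomyocyte markers was higher with succinate in floxed hearts (55485 to 62441 against 48561 to 55203 CPM). It was also higher in Cre hearts (53537 to 60570.5 against 45128 to 51154 CPM). Of these 8 markers, Myh6 and Ryr2 rose in floxed hearts (median 0.07, 6 of 8 positive), where 7.48% of all tested genes rose. Myh6 alone rose in Cre hearts (median 0.16, 8 of 8 positive), where 0.602% of all tested genes rose. Of 6 macrophage markers 4 fell in floxed hearts (median -0.72), where 5.64% of all tested genes fell. In Cre hearts 1 of 6 fell and all 6 changes were negative (median -0.33). There 3 of the 6 had an unadjusted p below 0.05, as 2054 of the 14607 tested genes did. The part of these shifts in the results was not tested, and in bulk tissue fewer cells of a type and less RNA per cell cannot be told apart.

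**Figure D2:**
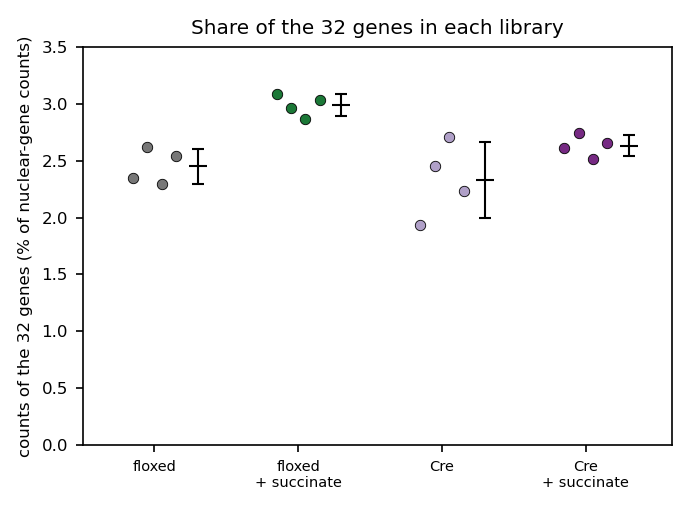
Counts of the 32 genes as a percentage of the counts of all nuclear genes (y axis) in each of the 16 libraries, by group; bars are the mean and SD of 4 libraries. Floxed hearts given succinate lie at 2.87% to 3.09%, above the 1.93% to 2.74% of the 12 other libraries.

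Among the uptake genes, Slc27a1 (the fatty acid transport protein FATP1, chromosome 8) had the largest change of all 32. It stood at 33.8, 37.2, 28.4 and 36.1 FPKM in replicates 1 to 4 of the floxed hearts and at 77.3, 62.8, 67.3 and 55.6 FPKM with succinate. In Cre hearts it stood at 31.9, 33.3, 50.3 and 33.4 FPKM without and 55.9, 46.7, 46.1 and 45.3 FPKM with succinate. The floxed groups did not overlap, and the Cre groups did through replicate 3. The log2 fold change was 1.01 ± 0.15 (SE) in floxed hearts (edgeR adjusted p = 0.00047) and 0.42 ± 0.15 in Cre hearts (adjusted p = 0.19). Cd36, the main fatty acid translocase of muscle, was at 457, 484, 478 and 552 FPKM in floxed hearts and 599, 660.3, 607 and 644 FPKM with succinate. Its Cre libraries were at 423, 525, 628 and 469.6 FPKM and, with succinate, at 560.0, 603, 616 and 563 FPKM. All floxed libraries with succinate were above those without, and the Cre groups overlapped. For Cd36 the log2 fold change was 0.40 ± 0.12 (SE) in floxed hearts (edgeR adjusted p = 0.037) and 0.23 ± 0.12 in Cre hearts (adjusted p = 0.42), and the floxed call was lost in 11 of 28 alternative analyses (adjusted p up to 0.12, without untreated floxed replicate 1). Fabp3, the cytosolic fatty acid binding protein of heart, was the most abundant of the 32 and did not pass in any comparison. Fabp3 was at 5049, 5827, 4925 and 6241 FPKM in floxed hearts and 5072, 6104, 5177 and 6560.0 FPKM with succinate. In Cre hearts the values were 4388, 5094, 5525 and 4493 FPKM and 4989, 5924, 4952 and 5331 FPKM. Groups overlapped in both genotypes, with a log2 fold change of 0.11 ± 0.13 (SE) in floxed hearts (edgeR adjusted p = 0.63) and 0.16 ± 0.13 in Cre hearts (adjusted p = 0.63). Slc27a4 (FATP4), at 4.29 to 7.85 FPKM over the 16 libraries, had a log2 fold change of -0.20 ± 0.11 (SE) in floxed hearts (edgeR adjusted p = 0.26) and -0.11 ± 0.11 in Cre hearts (adjusted p = 0.72).

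The balance of the FATP transporters moved toward Slc27a1. The ratio of Slc27a1 to Slc27a4 FPKM was 5.06 to 5.84 in floxed hearts and 10.8 to 14.6 with succinate, and 4.06 to 8.15 in Cre hearts and 7.91 to 9.45 with succinate. Over both genotypes its mean log2 rose by 0.87 (1.21 in floxed and 0.54 in Cre hearts; exact permutation p within genotype, 4900 arrangements, adjusted over 12 ratio tests = 0.0029).

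With succinate, 1 gene rose and 1 fell in floxed hearts within the Acsl family of long-chain acyl-CoA synthetases. Acsl1, the major cardiac member, rose in floxed hearts from 86.3, 107, 81.4 and 74.7 FPKM to 151, 143, 149 and 120.1 FPKM with succinate (replicates 1 to 4). Its Cre levels were 79.4, 83.4, 120.3 and 77.7 FPKM without and 136, 99.4, 117 and 133 FPKM with succinate. The floxed groups were separate and the Cre groups overlapped. For Acsl1 the log2 fold change was 0.74 ± 0.15 (SE) in floxed hearts (edgeR adjusted p = 0.0044) and 0.46 ± 0.15 in Cre hearts (adjusted p = 0.15). Acsl5 was the only member of the 32 that fell. Acsl5 was at 7.89, 7.66, 8.31 and 9.51 FPKM in floxed hearts and 4.45, 6.26, 5.47 and 5.97 FPKM with succinate. Its Cre values were 8.42, 8.45, 6.71 and 8.09 FPKM and 5.58, 6.88, 7.32 and 5.66 FPKM. Every floxed library with succinate was below every one without. For Acsl5 the log2 fold change was -0.54 ± 0.12 (SE) in floxed hearts (edgeR adjusted p = 0.0064) and -0.28 ± 0.12 in Cre hearts (adjusted p = 0.29). Acss1, which makes acetyl-CoA from acetate in the mitochondrial matrix, rose in floxed hearts. Acss1 was at 75.8, 89.1, 76.9 and 73.7 FPKM and, with succinate, 122, 116, 122 and 94.9 FPKM. Cre hearts had 60.8, 65.2, 85.7 and 70.5 FPKM without and 93.9, 81.8, 85.2 and 99.5 FPKM with succinate. The floxed groups were again separate, with a log2 fold change of 0.58 ± 0.12 (SE) in floxed hearts (edgeR adjusted p = 0.0048) and 0.39 ± 0.12 in Cre hearts (adjusted p = 0.13).

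The synthetases of lower expression passed in fewer comparisons. Acsl3, a synthetase of the endoplasmic reticulum and lipid droplets, rose in the average over genotypes (log2 fold change 0.37 ± 0.12, edgeR adjusted p = 0.038). Its levels were 1.25, 1.27, 0.923 and 0.888 FPKM in floxed hearts and 1.50, 1.53, 1.33 and 0.969 FPKM with succinate. The Cre libraries held 1.22, 1.05, 1.21 and 1.27 FPKM and 1.69, 1.12, 1.52 and 1.74 FPKM. Groups overlapped in both genotypes, and 16 of 27 alternatives ended that call (adjusted p up to 0.15). Acsl6, a synthetase known for docosahexaenoate activation in brain, was the only member that differed by genotype. It was at 1.82, 2.02, 1.79 and 1.35 FPKM in floxed hearts and 0.973, 1.16, 1.21 and 1.39 FPKM in Cre hearts. With succinate it was at 2.77, 1.91, 1.99 and 1.91 FPKM and 1.42, 1.44, 1.04 and 1.40 FPKM. Among hearts given succinate, all 4 Cre libraries were below all 4 floxed ones, a log2 difference of -0.73 ± 0.16 (edgeR adjusted p = 0.046), and 18 of 28 alternatives ended the call (adjusted p up to 0.18, without succinate-treated floxed replicate 1). Without succinate the difference was -0.58 ± 0.17 (adjusted p = 0.27). Acsl4, which prefers arachidonate, ranged over 1.28 to 2.42 FPKM with a log2 fold change of 0.29 ± 0.14 (SE) in floxed hearts (edgeR adjusted p = 0.17) and 0.17 ± 0.13 in Cre hearts (adjusted p = 0.62). Acsf2, a medium-chain synthetase, ranged over 17.4 to 27.9 FPKM with a log2 fold change of 0.24 ± 0.13 (SE) in floxed hearts (edgeR adjusted p = 0.24) and 0.09 ± 0.13 in Cre hearts (adjusted p = 0.82). The ratio of Acsl1 to the sum of Acsl3, Acsl4, Acsl5 and Acsl6 was 5.56 to 8.53 in floxed hearts and 11.2 to 14.2 with succinate. In Cre hearts it was 6.05 to 10.9 and 8.71 to 12.6. Its mean log2 rose by 0.74 over both genotypes (exact permutation test, adjusted p = 0.0029).

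**Figure D3:**
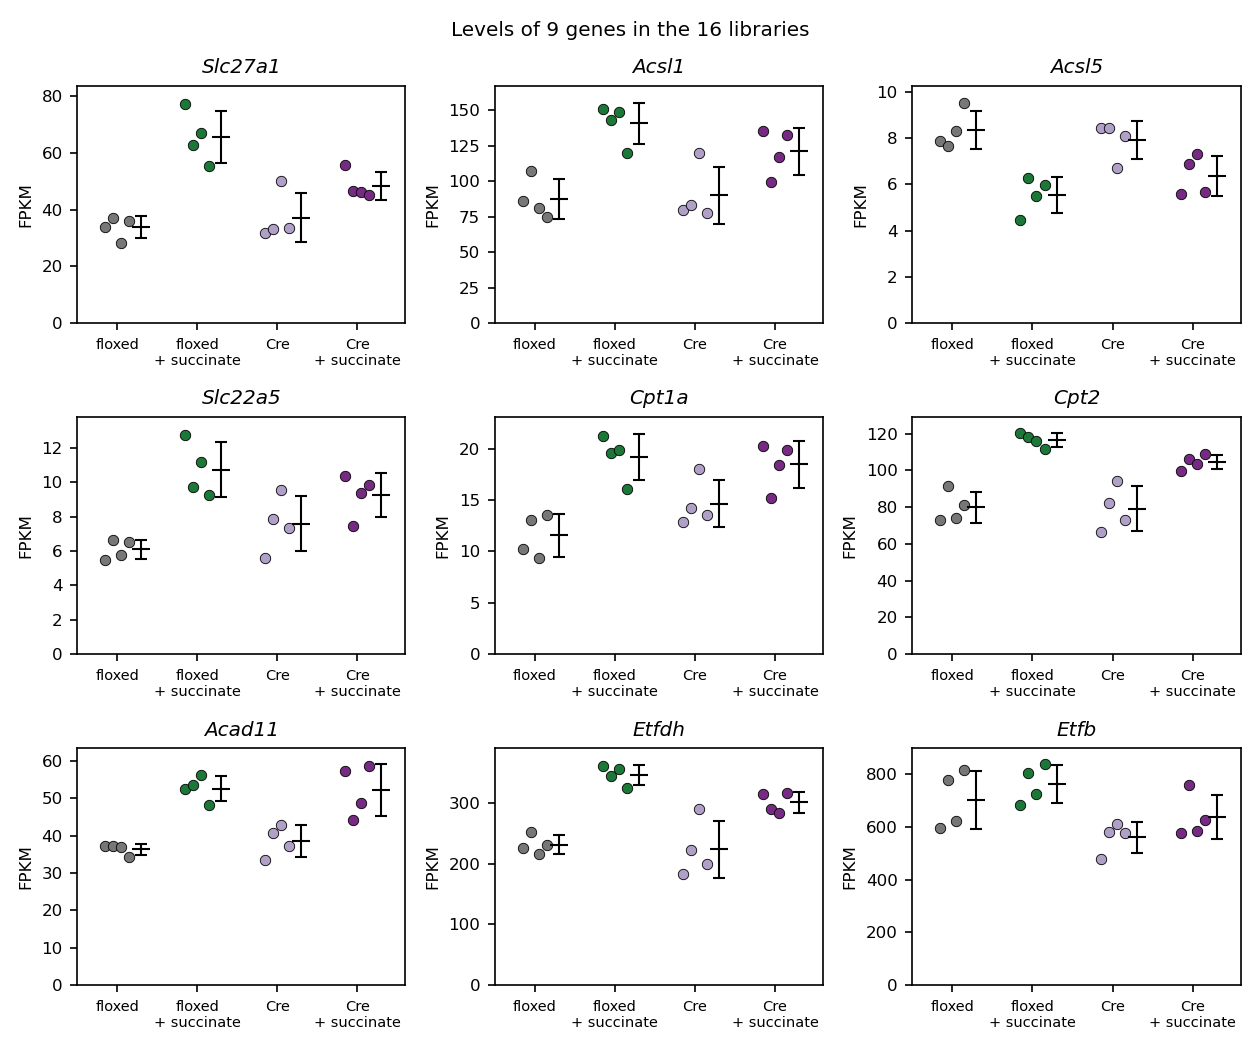
FPKM (y axes, from 0) of 9 genes in each library by group, with the mean and SD of 4 libraries. In floxed hearts the succinate libraries are separate from the others for Slc27a1, Acsl1, Acsl5 (lower), Slc22a5, Cpt1a, Cpt2, Acad11 and Etfdh, and overlap for Etfb.

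The carnitine genes had the largest median change of the 7 steps in floxed hearts. Slc22a5, the sodium-dependent carnitine importer OCTN2, was at 5.49, 6.63, 5.79 and 6.51 FPKM in floxed hearts and 12.8, 9.72, 11.2 and 9.26 FPKM with succinate. Cre hearts gave 5.61, 7.87, 9.54 and 7.35 FPKM and 10.4, 7.43, 9.41 and 9.87 FPKM. The floxed groups did not overlap and the Cre groups did. For Slc22a5 the log2 fold change was 0.87 ± 0.15 (SE) in floxed hearts (edgeR adjusted p = 0.0019) and 0.32 ± 0.15 in Cre hearts (adjusted p = 0.36). Cpt1a, one of the outer-membrane carnitine palmitoyltransferases and the form known from liver, was at 10.2, 13.1, 9.33 and 13.6 FPKM in floxed hearts and 21.2, 19.7, 19.9 and 16.1 FPKM with succinate. Its Cre libraries held 12.8, 14.2, 18.0 and 13.5 FPKM and 20.3, 15.2, 18.5 and 19.9 FPKM. Only the floxed groups were separate, with a log2 fold change of 0.78 ± 0.14 (SE) in floxed hearts (edgeR adjusted p = 0.0021) and 0.37 ± 0.14 in Cre hearts (adjusted p = 0.23). Cpt2, the inner-membrane transferase and the most abundant of the step, was at 73.1, 91.3, 74.1 and 81.2 FPKM in floxed hearts and 120.2, 118, 116 and 111 FPKM with succinate. The Cre libraries were at 66.4, 82.4, 94.4 and 73.2 FPKM and 99.8, 106, 104 and 109 FPKM. Both genotypes showed separate groups, and all Cre libraries with succinate were below all floxed ones with it. For Cpt2 the log2 fold change was 0.59 ± 0.11 (SE) in floxed hearts (edgeR adjusted p = 0.0027) and 0.44 ± 0.11 in Cre hearts (adjusted p = 0.068).

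Cpt1b, known as the main CPT1 of muscle, had only 40 to 110 counts per library against 1362 to 3545 for Cpt1a. In RefSeq (GRCm38.p6) its locus is shared with the long noncoding gene Gm44502 (0 to 10 counts) and neighbours Chkb (0 to 6 counts), and the sources used here do not state how shared reads were assigned. Its count therefore gives no level of the muscle isoform. Its log2 fold change was 0.49 ± 0.27 (SE) in floxed hearts (edgeR adjusted p = 0.25) and 0.08 ± 0.27 in Cre hearts (adjusted p = 0.93). The Cpt1a to Cpt1b ratio did not pass for succinate (exact permutation adjusted p = 0.14) or genotype (0.13).

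Of the 7 acyl-CoA dehydrogenases, Acadvl, Acad9 and Acad11 rose in floxed hearts. Acadvl, which acts on very long chains at the inner membrane, was at 489, 606, 488 and 542 FPKM in floxed hearts and 691, 677, 675 and 655 FPKM with succinate. Cre hearts held 411, 507, 550.4 and 460.4 FPKM and 555, 589.6, 546 and 587 FPKM. The floxed groups were separate and the Cre groups overlapped. For Acadvl the log2 fold change was 0.40 ± 0.11 (SE) in floxed hearts (edgeR adjusted p = 0.026) and 0.28 ± 0.11 in Cre hearts (adjusted p = 0.26), and 5 of 28 alternatives ended the floxed call (adjusted p up to 0.097, without untreated floxed replicate 3). Acad11, a dehydrogenase known to handle 4-hydroxy fatty acids, was the only member that rose in both genotypes. Acad11 was at 37.2, 37.2, 37.0 and 34.2 FPKM in floxed hearts and 52.5, 53.4, 56.2 and 48.1 FPKM with succinate. Its Cre values were 33.3, 40.8, 42.9 and 37.1 FPKM and 57.3, 44.3, 48.7 and 58.6 FPKM. Groups were separate in both genotypes. For Acad11 the log2 fold change was 0.58 ± 0.11 (SE) in floxed hearts (edgeR adjusted p = 0.0025) and 0.47 ± 0.11 in Cre hearts (adjusted p = 0.044); the Cre call was lost in 19 of 28 alternatives (adjusted p up to 0.185) and the floxed call in none. Acad9, best known as an assembly factor of complex I, was at 8.67, 10.4, 9.69 and 9.05 FPKM in floxed hearts and 11.9, 11.7, 11.3 and 9.87 FPKM with succinate. Cre hearts had 8.80, 9.68, 9.98 and 9.16 FPKM and 11.6, 9.52, 10.8 and 11.3 FPKM. Both pairs of groups overlapped in FPKM. For Acad9 the log2 fold change was 0.29 ± 0.09 (SE) in floxed hearts (edgeR adjusted p = 0.034) and 0.23 ± 0.09 in Cre hearts (adjusted p = 0.22), with the floxed call lost in 12 of 28 alternatives (adjusted p up to 0.12, without untreated floxed replicate 1).

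Acadl and Acadm, the long- and medium-chain dehydrogenases, rose in the average over genotypes. Acadl was at 518, 582, 511 and 507 FPKM in floxed hearts and 646, 617, 621 and 598 FPKM with succinate. Its Cre values were 455, 545, 587 and 490.3 FPKM and 561, 593, 576 and 568 FPKM. The averaged log2 fold change of Acadl was 0.23 ± 0.07 (edgeR adjusted p = 0.028). The floxed libraries were separate, although the floxed comparison did not pass (0.28 ± 0.10, adjusted p = 0.069). Acadm was at 517, 588, 536 and 511 FPKM in floxed hearts and 699, 607, 645 and 622 FPKM with succinate. In Cre hearts Acadm was at 394, 517, 588 and 457 FPKM and 569, 560.1, 513 and 562 FPKM. The averaged change was 0.26 ± 0.09 (edgeR adjusted p = 0.042), lost in 19 of 27 alternatives (adjusted p up to 0.104), against 10 of 27 for Acadl (up to 0.073). Acads, for short chains, ranged over 94.0 to 131 FPKM with a log2 fold change of 0.18 ± 0.09 (SE) in floxed hearts (edgeR adjusted p = 0.22) and 0.14 ± 0.09 in Cre hearts (adjusted p = 0.53). Acad10, related to Acad11, ranged over 1.25 to 2.00 FPKM with a log2 fold change of 0.19 ± 0.14 (SE) in floxed hearts (edgeR adjusted p = 0.4) and -0.04 ± 0.14 in Cre hearts (adjusted p = 0.93). The ratio of Acadl to Acadvl was 0.936 to 1.06 in floxed hearts and 0.911 to 0.936 with succinate, and 1.07 to 1.11 in Cre hearts and 0.967 to 1.06 with succinate. The libraries with succinate were below those without in each genotype, by a margin under the last digit shown in floxed hearts. Its mean log2 fell by 0.11 with succinate and was 0.12 higher in Cre than in floxed hearts (exact permutation test, adjusted p = 0.0016 for each, from the smallest p that 4900 arrangements can give).

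In the later steps of the cycle, Hadh and Acaa2 rose in floxed hearts. Hadh, the 3-hydroxyacyl-CoA dehydrogenase for shorter chains, was at 279.7, 356, 291 and 348 FPKM in floxed hearts and 463, 409, 441 and 447 FPKM with succinate. Cre hearts gave 214, 339, 338 and 299 FPKM and 361, 391, 352 and 359 FPKM. The FPKM groups were separate in both genotypes, and replicate 1 of the Cre hearts stood lowest. For Hadh the log2 fold change was 0.52 ± 0.14 (SE) in floxed hearts (edgeR adjusted p = 0.023) and 0.33 ± 0.14 in Cre hearts (adjusted p = 0.3), with the floxed call lost in 5 of 28 alternatives (adjusted p up to 0.084 on leaving out 1 library). Acaa2, the 3-ketoacyl-CoA thiolase and most abundant of the step, was at 573, 758, 584 and 756 FPKM in floxed hearts and 884, 859, 807 and 917 FPKM with succinate. Its Cre libraries held 466, 639.7, 688 and 553 FPKM and 686, 764, 679.8 and 747 FPKM. The floxed groups were separate and the Cre groups overlapped through replicate 3. For Acaa2 the log2 fold change was 0.43 ± 0.14 (SE) in floxed hearts (edgeR adjusted p = 0.048) and 0.33 ± 0.14 in Cre hearts (adjusted p = 0.29), and 17 of 28 alternatives ended the floxed call (adjusted p up to 0.17, without untreated floxed replicate 3). Echs1, the short-chain enoyl-CoA hydratase, rose only in the average over genotypes. Echs1 was at 155, 157, 169 and 193 FPKM in floxed hearts and 199.8, 193, 202 and 210.5 FPKM with succinate. In Cre hearts it was at 123, 156, 156 and 149 FPKM and 167, 187, 170.3 and 185 FPKM. The averaged change of Echs1 was 0.31 ± 0.08 (edgeR adjusted p = 0.0097), and the floxed and Cre changes were 0.31 and 0.32.

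Hadha and Hadhb form 1 protein complex and share the start region printed above, and the ratio of their transcripts changed. Hadha was at 595, 714, 571 and 566 FPKM in floxed hearts and 829.7, 755, 769 and 674 FPKM with succinate. Cre hearts had 469, 576, 679 and 539 FPKM and 673, 626, 611 and 673 FPKM. Hadha rose in the average over genotypes (0.29 ± 0.09, edgeR adjusted p = 0.025; up to 0.068 over alternatives) and had 0.36 in floxed and 0.23 in Cre hearts. Hadhb ranged over 204 to 299 FPKM with a log2 fold change of 0.23 ± 0.11 (SE) in floxed hearts (edgeR adjusted p = 0.19) and 0.09 ± 0.11 in Cre hearts (adjusted p = 0.76). The Hadha to Hadhb ratio was 2.41, 2.62, 2.41 and 2.62 in floxed hearts and 2.78, 2.87, 2.75 and 2.63 with succinate. In Cre hearts it was 2.29, 2.35, 2.44 and 2.37, and 2.60, 2.61, 2.51 and 2.66 with succinate. Libraries with succinate were above those without in each genotype. The mean log2 ratio rose by 0.13 in floxed and by 0.13 in Cre hearts (exact permutation test, adjusted p = 0.0016). It was 0.09 lower in Cre than in floxed hearts (log2 difference -0.09, exact permutation adjusted p = 0.0082). The absolute ratio depends on the gene lengths behind the authors' FPKM (2716 bases for Hadha and 5922 for Hadhb), which cancel in its change.

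**Figure D4:**
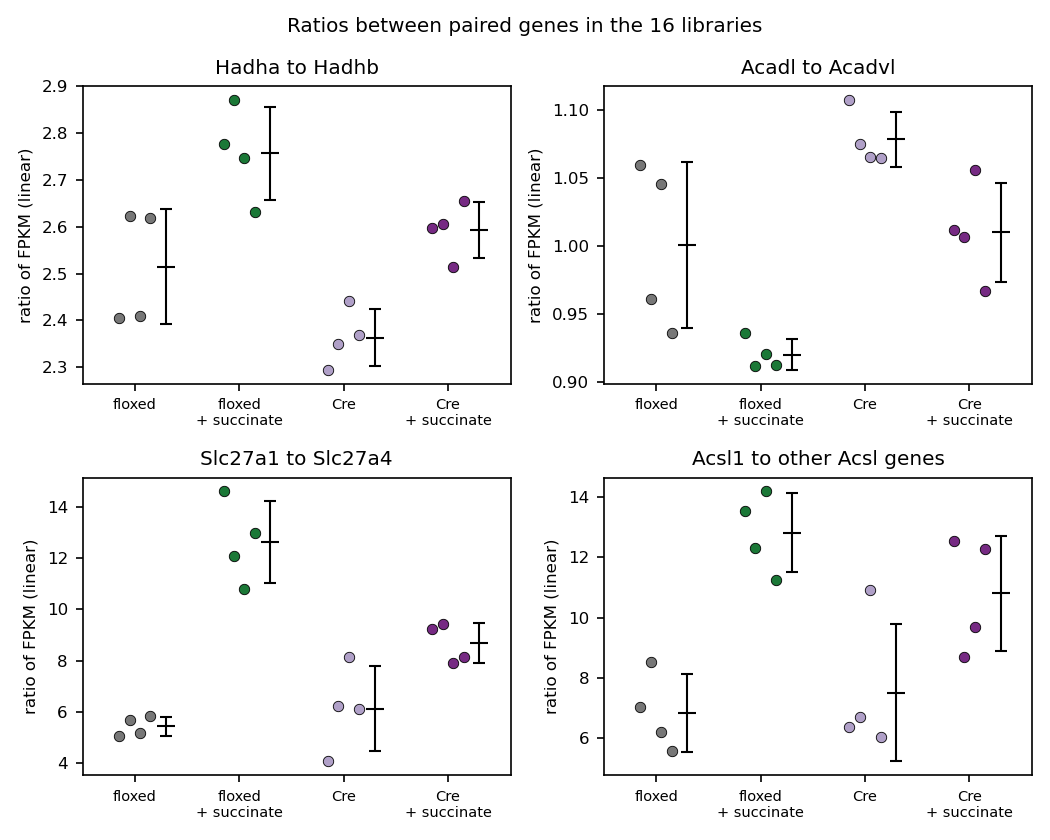
Ratios of FPKM (linear y axes that do not start at 0) for 4 pairs of genes in each library, with the mean and SD of 4 libraries per group. The Hadha to Hadhb ratio is 2.63 to 2.87 in floxed hearts given succinate against 2.41 to 2.62 without it, and 2.51 to 2.66 against 2.29 to 2.44 in Cre hearts.

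The auxiliary enzymes, which prepare unsaturated fatty acids for the cycle, did not pass with succinate. Eci1, an enoyl-CoA isomerase and the more abundant, was at 254, 297, 253 and 311 FPKM in floxed hearts and 306, 310.0, 304 and 335 FPKM with succinate. Its Cre values were 173, 243, 249 and 213 FPKM and 232, 285, 242 and 253 FPKM. With succinate all Cre libraries were below all floxed ones. For Eci1 the log2 fold change was 0.22 ± 0.13 (SE) in floxed hearts (edgeR adjusted p = 0.27) and 0.24 ± 0.13 in Cre hearts (adjusted p = 0.42). Decr1, the dienoyl-CoA reductase, ranged over 135 to 225 FPKM with a log2 fold change of 0.27 ± 0.12 (SE) in floxed hearts (edgeR adjusted p = 0.13) and 0.11 ± 0.12 in Cre hearts (adjusted p = 0.72).

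Electron transfer was led by Etfdh, the dehydrogenase that hands electrons to ubiquinone. Etfdh was at 225, 253, 216 and 230.1 FPKM in floxed hearts and 361, 343, 356 and 324 FPKM with succinate. Cre hearts held 182, 223, 289 and 199.8 FPKM and 314, 290.0, 283 and 316 FPKM. The floxed groups were separate, and replicate 3 brought the Cre groups to overlap. For Etfdh the log2 fold change was 0.63 ± 0.13 (SE) in floxed hearts (edgeR adjusted p = 0.004) and 0.46 ± 0.13 in Cre hearts (adjusted p = 0.091). In RefSeq its span overlaps that of Ppid (808 to 1337 counts). Whether exons overlap was not examined and strandedness is not given, so any reads shared by both genes cannot be told apart. Fabp3 (with Zcchc17), Acad10 (Brap), Acad11 (Ackr4) and Echs1 (Paox) overlap other counted genes in the same way. So do Acsl6 (Gm12224), Acsl3 (Utp14b), Acss1 (E130215H24Rik), Acadl (Gm15793), Acsl5 (Gm31595), Acsf2 (Chad) and Etfb (Cldnd2), besides Cpt1b as described above. The limit thus also covers Acsl6, the only member that differed by genotype, and its part in that difference was not tested. Etfa, the alpha subunit of the flavoprotein, was at 49.5, 58.5, 53.2 and 53.9 FPKM in floxed hearts and 62.2, 63.6, 65.2 and 66.6 FPKM with succinate. Its Cre libraries were at 42.0, 50.6, 54.3 and 48.2 FPKM and 55.7, 59.9, 56.8 and 57.9 FPKM. The FPKM groups were separate in both genotypes, while on normalised log2 CPM the Cre groups overlapped. For Etfa the log2 fold change was 0.31 ± 0.10 (SE) in floxed hearts (edgeR adjusted p = 0.045) and 0.27 ± 0.10 in Cre hearts (adjusted p = 0.2), and 19 of 28 alternatives ended the floxed call (adjusted p up to 0.15, without untreated floxed replicate 1). Etfb, its partner subunit, overlapped between groups. Etfb was at 598, 778, 623 and 816 FPKM in floxed hearts and 683, 806, 726 and 839 FPKM with succinate. In Cre hearts it was at 477, 582, 613 and 576 FPKM and 579, 759, 586 and 627 FPKM. For Etfb the log2 fold change was 0.17 ± 0.14 (SE) in floxed hearts (edgeR adjusted p = 0.45) and 0.22 ± 0.14 in Cre hearts (adjusted p = 0.49). The Etfa to Etfb ratio did not pass for succinate (exact permutation adjusted p = 0.14) or genotype (0.057). Gene lengths used for FPKM were 9685 bases for Etfa and 904 for Etfb, and the level of each depends on that length.

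Library by library on normalised log2 CPM, 19 of the 32 genes were higher in all 4 floxed hearts given succinate than in all 4 without (10.2% of all tested genes), and Acsl5 was lower (7.65%). In Cre hearts Cpt2, Acad11 and Echs1 separated upward (4.8%) and none downward. Between genotypes without succinate, no gene of the 32 passed (0.11% of all tested genes did in either direction, and 4 of the 32 had an unadjusted p below 0.05, as 1278 of the 14607 did), and Acsl6 and Eci1 were lower in all 4 Cre libraries (2.33%). Between genotypes with succinate, Acsl6 alone was lower (0.144%), 28 of 32 differences were negative with a median of -0.21, and 15 genes were lower in all 4 Cre libraries (3.54%). An unadjusted p below 0.05 was found for 11 of the 32 there and for 1617 of the 14607. Those 15 were Slc27a1, Acsl6, Cpt2, Acadvl, Acadl, Acadm, Hadha, Hadhb, Hadh, Echs1, Acaa2, Eci1, Decr1, Etfa and Etfdh. Genes from the marker lists of other cell types differed in the same comparison, and which cells made them was not tested. Of 6 genes listed as skeletal muscle markers, the 3 tested (Acta1, Tnnt3 and Atp2a1) were higher in Cre hearts given succinate (median 2.68). All 3 had an unadjusted p below 0.05, as 1617 of the 14607 tested genes did. The myosins Myh1, Myh2 and Myh4 did not enter the test. Sums over the list were 866.7 to 1234 CPM in Cre against 199.4 to 393.9 CPM in floxed hearts given succinate. Without succinate 1 of the 3 passed, higher in Cre hearts (median 1.76), where 0.11% of all tested genes passed in either direction. Of 7 genes listed as atrial markers 4 were tested, and 2 (Nppa and Dkk3) were higher in Cre hearts given succinate (list median 1.20). An unadjusted p below 0.05 was found for 2 of the 4. Of 6 fibroblast markers none passed, all 6 differences were positive (median 0.35) and 4 had an unadjusted p below 0.05. Ventricular and general cardiomyocyte markers had no member that passed (median -0.08). The part of these markers in the differences was not tested. The comparisons share groups and are not independent of each other.

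The smaller values in Cre hearts were not shown to differ from those in floxed hearts. In the test of the difference itself (the interaction), none of the 32 genes passed, nor did any of the tested genes (0%; 709 had an unadjusted p below 0.05, and DESeq2 called none of the 32). The difference was negative for 25 of 32 with a median of -0.13. It was largest for Slc27a1 (-0.59 ± 0.21, edgeR adjusted p = 0.97) and Slc22a5 (-0.55 ± 0.22, adjusted p = 0.97), the 2 genes with an unadjusted p below 0.05.

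Other genes of the same pathway, from lists, were counted in the same test, with values as log2 fold changes ± SE. Over all tested genes 7.48% rose in floxed hearts and 0.602% in Cre hearts. Of 13 listed genes of activation, carnitine supply and mitochondrial entry, 10 were tested and 4 rose in floxed hearts. They were Acss3 (1.44 ± 0.32), Acsf3, a malonyl-CoA synthetase (0.41 ± 0.09), Aldh9a1, of carnitine synthesis (0.75 ± 0.18), and Slc25a20, the carnitine-acylcarnitine carrier of the inner membrane (0.50 ± 0.12). Acsf3 also rose in Cre hearts (0.45 ± 0.09). Of 21 further genes of beta-oxidation and acyl-CoA hydrolysis, 5 rose in floxed and none in Cre hearts. The 4 of smallest p were Etfbkmt, the methyltransferase of the ETF beta subunit (1.10 ± 0.13), Mmut and Pcca, which pass propionyl-CoA to succinyl-CoA (0.56 ± 0.12 and 0.39 ± 0.10), and Acot2, a matrix acyl-CoA thioesterase (1.45 ± 0.31). Of 10 tested genes of uptake and lipoprotein lipolysis, Vldlr, the very low density lipoprotein receptor, rose in floxed hearts (0.70 ± 0.16) and none in Cre hearts. That 1 of 10 is near the share over all tested genes. None of these lists had a member that fell in floxed or Cre hearts. Averaged over genotypes, 4 of 10 genes of activation, carnitine and entry rose, 9 of 21 of beta-oxidation and hydrolysis, and 4 of 10 of uptake and lipolysis. In that comparison Slc27a3 alone of these lists fell (-0.81 ± 0.27, edgeR adjusted p = 0.045), named after its values were seen. Over all tested genes 10.6% rose and 8.45% fell there.

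Control genes and targets were counted in the same way, beside the same shares over all tested genes (7.48% rose in floxed and 0.602% in Cre hearts). The single genes that rose in floxed hearts among the regulators and among the complex I subunits are below the floxed share. Of 9 genes of malonyl-CoA and AMPK control, 3 rose in floxed hearts and none in Cre hearts. Acacb makes the malonyl-CoA that inhibits CPT1 (0.78 ± 0.16), Mlycd removes it (0.95 ± 0.22), and Prkab1 is a regulatory subunit of AMPK (0.56 ± 0.12). Of 15 tested PPAR targets outside the 32, 7 rose in floxed hearts, all 15 changes were positive and the median was 0.74. The 4 of smallest p were Ehhadh, the peroxisomal bifunctional enzyme (2.58 ± 0.32), Slc25a34 (0.74 ± 0.14), Plin5, a lipid droplet coat (0.88 ± 0.16), and Ucp3, a mitochondrial uncoupling protein (2.89 ± 0.53). In Cre hearts Ehhadh alone of these rose (1.54 ± 0.31), with a median of 0.53. Of 17 tested PPAR and ERR regulators only Nrip1, a corepressor, rose in floxed hearts (0.65 ± 0.17) and none did in Cre hearts. Ppara itself, named here after its values were seen, had a log2 fold change of -0.45 ± 0.24 (SE) in floxed hearts (edgeR adjusted p = 0.23) and -0.19 ± 0.24 in Cre hearts (adjusted p = 0.79). Downstream, 5 of 18 TCA cycle genes rose in floxed hearts (median 0.28), among them Idh3a (0.46 ± 0.09), Dld (0.44 ± 0.09), Dlst (0.36 ± 0.09) and Cs (0.40 ± 0.10). Idh3a and Dlst rose in Cre hearts too (0.39 ± 0.09 and 0.40 ± 0.09; median 0.24). Of 36 nuclear complex I subunits, Ndufs1 rose in floxed hearts (0.41 ± 0.11; median 0.07) and none rose in Cre hearts (median 0.17).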

How the data were processed

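The authors deposited gene counts (whole numbers, 24371 genes) and FPKM made from the same counts with 1 gene length per gene, per the file headers and values. The build was GRCm39 and the tools included HISAT2, HTSeq and fastp, besides DESeq2 and R 3.2.0, per the submitters' processing notes; the sources used here give no settings, strandedness or handling of reads shared by genes. Counts were tested with edgeR 4.0.16 (robust quasi-likelihood, TMM, filterByExpr with a minimum count of 10, 1 mean per group over 16 libraries, 12 residual degrees of freedom, Benjamini-Hochberg over 14607 genes, threshold 0.05). Ratios of deposited FPKM were compared by two-sided exact permutation within the other factor (4900 arrangements, 12 tests). Both tests were tested on simulated data. Alternatives were DESeq2 1.42.0, limma 3.58.1 (voom with quality weights; log2 FPKM with pseudocounts 1 and 0.1), RLE factors, other filters, a replicate block, only the groups compared and leaving out each library. The members, lists and ratios were chosen with earlier results of these data known. Genes with a value in every library are those that passed in any comparison and the most abundant of each step; from other lists, up to 4 that passed, by smallest p. Depths were 27835235 to 34700996 counts, at which 3 counts equal 0.0865 to 0.108 CPM; this covers counting error only. Start windows and overlaps came from RefSeq tables (GRCm38.p6).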

Additional observations from a re-analysis of the deposited data

Results flagged for a closer look

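In 6 of the 156 groups of 4 libraries checked, 1 library stood apart from the other 3 (gap over range above Dixon's 95% critical value on normalised log2 CPM); chance gives about 1 in 20 groups. Cd36 was at 11.15 log2 CPM in replicate 4 of the floxed hearts, against 10.86 to 10.90 in the others. In FPKM (552.2, against 457.2 to 484.2 FPKM) that library did not pass the same limit. Acss1 was at 8.29 log2 CPM in replicate 2 of the floxed hearts, against 8.08 to 8.10. In FPKM (89.15, against 73.66 to 76.86 FPKM) it did not pass the limit either. On normalised log2 CPM, Cpt2 was at 8.20 in replicate 1 of the floxed hearts given succinate, against 8.11 to 8.12. In FPKM that library (120.2 FPKM, against 111.4 to 118 FPKM) did not stand apart. Acsl6 was at 2.775 FPKM in that same library, against 1.913 to 1.986 FPKM. In replicate 3 of the Cre hearts given succinate, Acsl6 was at 1.041 FPKM against 1.4 to 1.435 FPKM, and Acadm at 513.2 FPKM against 560.2 to 568.6 FPKM. Acsl6 was thus extreme in both groups behind its genotype difference with succinate, once upward in floxed and once downward in Cre hearts.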

How the results depend on the processing

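No result reversed. For succinate in floxed hearts (15 of 32 genes), counts were 9 to 19 on leaving out 1 library and 10 to 19 under the other alternatives, and Slc27a1, Slc22a5, Cpt1a, Cpt2, Acsl1, Acss1, Acad11, Etfdh and Acsl5 passed in all 28. For succinate in Cre hearts (1 gene) leaving out 1 library gave 0 to 6. DESeq2 called 3 genes, voom 2, and RLE factors, removal of mitochondrially encoded genes, the replicate block, log2(FPKM + 1), log2(FPKM + 0.1), only the groups compared, and leaving out floxed replicate 4 with Cre replicate 1 called 0. For genotype with succinate (1 gene, Acsl6) leaving out 1 library gave 0 to 1, and the stricter filter, the replicate block, the FPKM fits and only the groups compared gave 0. Averaged over genotypes, counts were 16 to 21; genotype without succinate and the interaction stayed at 0 in every alternative run. With the replicate block, 16 genes passed in floxed hearts and 21 in the average. Deviations of samples of the same number correlated at -0.121 to 0.32, and not each was best with its own number. The highest was replicate 1 of the succinate-treated floxed and Cre hearts, which matched its own number best. Such correlations cannot exclude a pairing, so whether the number marks one stays unknown. Of 240 ratio results under alternatives, 232 kept their side of the threshold and 8 newly passed, all for Etfa to Etfb or Cpt1a to Cpt1b; the causes were not tested. Depth limits Sucnr1, at 0 to 21 counts.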
